A study of Homo sapiens with 2 samples.

Results

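The 7 genes described here encode the enzymes that make thymidylate and supply deoxynucleotides: TYMS, DUT, TK1, TK2, RRM1, RRM2 and RRM2B. They were taken by gene name from gene tables that list 36953 genes, and all 7 were found in both libraries. Their features in the companion tables were 85 of 277804 exon regions, 14 of 54514 transcripts with values, 370 of 2211260 exon junctions and 138 of 429011 exon-intron boundaries.

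The study compared polyadenylated RNA of a human colorectal cancer cell line with that of its drug-resistant derivative, with 1 sequenced library of each. MIP101 is the parental line, made from cells of a liver metastasis, and is sensitive to 5-fluorouracil (5-FU). MIP/5FU is a resistant clone selected from MIP101 by culture in rising amounts of 5-FU, with an IC50 10-fold higher, and its medium held 5 µM 5-FU to keep the resistance. No other allele or agent separates the lines in the labels, and both were grown for about 48 hours in medium free of drug and antibiotics before RNA was isolated, so neither library was made from cells then under drug. Because MIP/5FU is 1 clone, a property of that clone and a property of resistance cannot be told apart.

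Thymidylate synthase (TYMS) methylates dUMP to dTMP, the only de novo route to thymidine nucleotides, and 5-FU is converted in cells to a nucleotide that traps this enzyme on its folate cofactor. DUT hydrolyses dUTP to dUMP, which feeds TYMS and keeps uracil out of DNA, and the thymidine kinases salvage thymidine, TK1 in the cytosol of dividing cells and TK2 in mitochondria. Ribonucleotide reductase makes the deoxynucleotides: its large subunit RRM1 pairs with RRM2, which is made around S phase, or with RRM2B, a p53-inducible form used outside S phase.

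Gene reads totalled 200141071 for MIP101 and 109693681 for MIP/5FU, and junction reads 24925624 and 13022878. With 1 library per line there is no replicate check and no p-value. Every interval given covers counting error only, and since the reads came from PCR without molecular identifiers they are not independent molecules. All 13 colon epithelium markers examined were tested, with a summed level of 8216 reads per 1000000 gene reads (RPM) in MIP101 and 8990 in MIP/5FU. KRT8 and KRT18 made up most of that sum (3309 and 2790 RPM in MIP101, 3844 and 3307 in MIP/5FU). At 2-fold KRT20 (log2 ratio 2.76) and MUC2 (1.13) were higher in MIP/5FU, and VIL1 (-1.23) and LGALS4 (-1.31) were lower. The 11 matched hepatocyte markers summed to 8.47 and 7.03 RPM, with APOA1, APOA2, TTR and FGA at 0 in both. SERPINA1 held the largest part of that sum (6.72 and 3.90 RPM). HPX (123 and 141 reads, log2 ratio 1.06) was called higher in MIP/5FU at 2-fold. Blood and immune markers summed to 2.68 and 3.90 RPM, with LYZ the largest part (1.22 and 1.71 RPM) and MS4A1 and HBB at 0. Fibroblast and endothelial markers summed to 23.1 and 20.6 RPM, with COL1A2, DCN, LUM and CDH5 at 0. Within that list COL3A1 had 1659 and 38 reads (log2 ratio -4.56), whereas PDGFRB (0.40) and ESAM (0.89) were higher in MIP/5FU. The part of these markers in the results was not tested. In bulk RNA, fewer cells of a type and less RNA per cell cannot be told apart.

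The order of the 7 genes by level was the same in both libraries. Level here is the authors' normalized coverage per base of the gene, and the order from the top was TYMS, RRM2, TK1, RRM1, DUT, RRM2B and TK2. It corrects for length over all annotated exonic bases, so stretches with few reads lower it. In MIP101 DUT stood at 406, with exon region 7b (1295 bases) at 286 and exon regions 3a to 7a at 863 to 1416. Exon regions 2a to 18a of RRM1 stood at 861 to 1283, so the place of DUT depends on the bases counted. TYMS stood at 2429 in MIP101 and 3767 in MIP/5FU, and TK2, the mitochondrial kinase, at 34.7 and 32.2. The level of TYMS was therefore 70.0 times that of TK2 in MIP101 and 117 times in MIP/5FU. The closest neighbours in the order were TK1 and RRM1 in MIP101, at 926 (counting interval 917 to 936) and 891 (884 to 898), and these intervals did not overlap. In MIP/5FU the same pair stood at 1114 and 899.5.

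**Figure D1:**
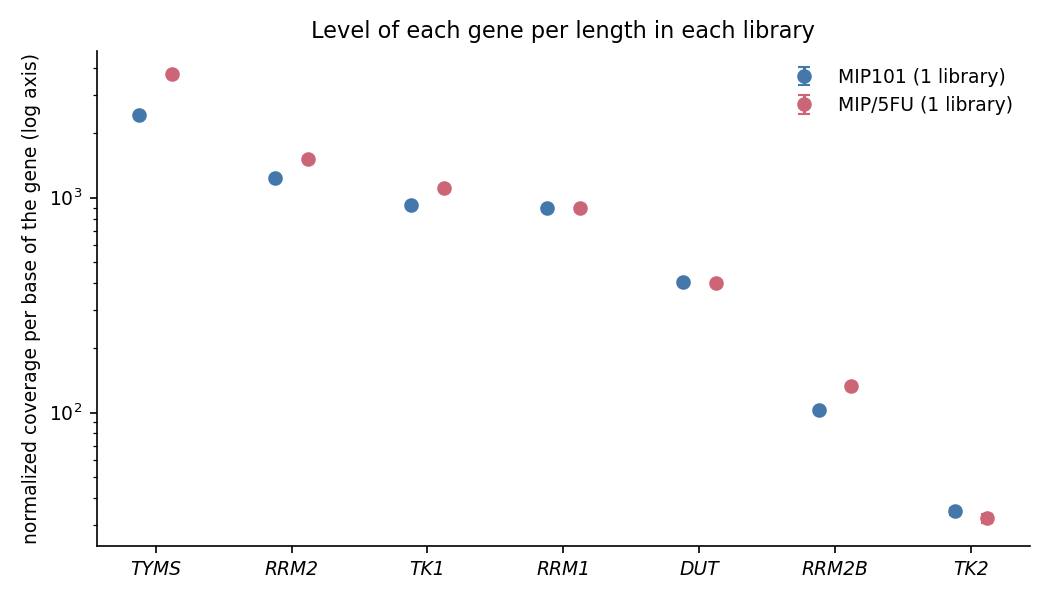
Normalized coverage per base of each of the 7 genes (log axis) in MIP101 (blue) and MIP/5FU (red), 1 library each; bars are 95% counting intervals and are mostly smaller than the points. The order runs from TYMS (2429 and 3767) to TK2 (34.7 and 32.2) in both libraries.

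TYMS was the enzyme gene whose share of reads differed most between the libraries, and it was higher in the resistant clone. The MIP101 library held 87172 of its reads and the MIP/5FU library 75428, which scaled by the library totals is 436 and 688 RPM. The log2 ratio of MIP/5FU over MIP101 was 0.66 (95% counting interval 0.64 to 0.67), or 1.58-fold. Genes with 100 or more reads in the 2 libraries together, 15382 in all and called tested genes here, included 6.82% with a higher ratio. TYMS (identifier ENSG00000176890) lies on the plus strand of chromosome 18 from 647619 to 663492 on hg18, the build of the deposited files, to which all coordinates of genes and features here refer unless GRCh38 is named.

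Exon by exon, TYMS was higher in MIP/5FU over its whole length. Exon regions 2a to 7a, 6 in all, had log2 ratios between 0.54 and 0.71. Exon region 1a, which holds the start codon, had a log2 ratio of 0.94, from 5725 and 6035 read equivalents (coverage divided by the mean bases per read). Its splicing index, which is how far a feature's log2 ratio lies from its gene's, was 0.28 (0.20 to 0.37), under the value of 1 needed for a call. Intervals of indices are exact, leave out 0.1% and take the ratio of the gene as fixed. Exon regions 4a and 5a lay slightly below the gene, with indices of -0.11 (-0.18 to -0.04) and -0.12 (-0.18 to -0.06). Among 8607 tested first exon regions labelled 1a in all genes, the median index was 0.03 and 14.5% were at or above that of TYMS.

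The first exon of TYMS shares sequence with a gene on the opposite strand, and the protocol as described marks no strand. C18orf56 starts within TYMS and runs the other way, and 106 of the 329 bases of TYMS exon region 1a also lie in exon region 1a of C18orf56. That gene had 1537 and 1584 reads, a log2 ratio of 0.91 (0.81 to 1.01). Its first exon region had 885 and 873 read equivalents, against 5725 and 6035 for that of TYMS. The part of C18orf56 in the higher ratio of TYMS exon region 1a was not tested.

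TYMS was also the enzyme gene with most reads over exon-skipping junctions, 52 in MIP101 and 45 in MIP/5FU. The GENCODE sequences below (release 29, GRCh38, plus strand of chromosome 18) show the usual join of exon 3 to exon 4 and the 2 skipping joins that Ensembl transcripts support; they are given because the skipped stretches leave the reading frame whole. Lower case marks the end of the upstream exon, and capitals mark the start of the exon it is joined to.
TYMS exon 3 to exon 4: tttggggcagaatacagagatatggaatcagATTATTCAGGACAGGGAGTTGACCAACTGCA
TYMS exon 3 to exon 5: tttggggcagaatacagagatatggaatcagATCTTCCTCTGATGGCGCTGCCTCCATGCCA
TYMS exon 1 to exon 4: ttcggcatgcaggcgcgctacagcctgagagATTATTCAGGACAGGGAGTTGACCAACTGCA

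The join of exon 3 to exon 5 leaves out exon 4 (GRCh38 chr18:669072-669173), 102 bases or 34 codons. The join of exon 1 to exon 4 leaves out 249 bases or 83 codons. All 3 windows lie in coding sequence.

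Reads over the usual TYMS join of exon 3 to exon 4 numbered 3009 in MIP101 and 2334 in MIP/5FU, with an index of -0.16 (-0.29 to -0.03). Reads that skipped exon 4 numbered 22 and 23, which is 0.726% (exact Clopper-Pearson 95% interval 0.455% to 1.10%) and 0.976% (0.620% to 1.46%) of the reads leaving exon 3 by either join. Skipping of exons 2 and 3 had 10 and 7 reads, 0.539% (0.259% to 0.988%) and 0.427% (0.172% to 0.879%) of the reads leaving exon 1 by that join or the usual one. In both cases the intervals of the 2 libraries overlapped, so no difference in skipping was detectable at this depth. The joins of exon 1 to exon 3 (5 and 9 reads) and exon 3 to exon 7 (8 and 2 reads) had no support from Ensembl transcripts, mRNAs or ESTs.

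DUT, the dUTPase that makes the substrate of TYMS, had the same share of reads in both lines to within counting error. Its reads numbered 20174 and 11089, or 101 RPM in each library. The log2 ratio was 0.00 (-0.03 to 0.04), with levels per base of 406 and 400.5. DUT (ENSG00000128951) lies on the plus strand of chromosome 15 from 46410913 to 46422862. The difference between TYMS and DUT in log2 ratio was 0.65 (conditional exact 95% interval 0.62 to 0.69), the largest of the 6 pairs of enzymes compared.

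DUT makes a mitochondrial and a nuclear protein from different first exons, and the reads at exon 2 can be divided between them. The mitochondrial first exon is spliced to exon 2, whereas the nuclear first exon runs straight into it, so its reads appear in the files as an exon-intron boundary. The GENCODE sequences (GRCh38, chromosome 15, plus strand) show the difference: capitals mark exon 2, which starts at 48332268, and the nuclear form is shown from its start codon.
DUT mitochondrial first exon to exon 2: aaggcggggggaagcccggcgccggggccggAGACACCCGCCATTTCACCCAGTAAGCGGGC
DUT nuclear start codon into exon 2: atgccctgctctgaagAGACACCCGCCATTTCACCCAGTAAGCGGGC

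The nuclear form made up most of the DUT reads entering exon 2 in both lines. The spliced mitochondrial join (E1c_E2a) had 36 and 17 reads. Reads running into exon 2 (E2_Aa) numbered 200 and 99, or 84.7% (79.5% to 89.1%) and 85.3% (77.6% to 91.2%) of the total, with intervals that overlapped almost wholly. That boundary is supported by 8 mRNAs and 25 ESTs but by no Ensembl transcript, and reads from unspliced RNA would be counted in it too. At the other end of exon 2, the boundary into the intron (E2_Da) had 1 read and 0.

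The mitochondrial first exon regions of DUT had few reads. Region 1a had 291 and 126 read equivalents and an index of -0.34 (-0.87 to 0.16), the lowest of the gene, and region 1b had 44 and 24 and an index of 0.00 (-1.33 to 1.20). Regions 1d and 1f had indices of -0.13 and -0.25, and regions 1c and 1e, of 6 and 2 bases, had too few reads to be tested. None of these intervals excluded 0. Exon regions 2a to 7b of DUT had log2 ratios from -0.04 to 0.08.

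The thymidine kinases parted: TK1 had a higher share of reads in MIP/5FU, and TK2 did not. TK1 had 34953 and 23370 reads (175 and 213 RPM). Its log2 ratio was 0.29 (0.26 to 0.31), or 1.22-fold. All 10 tested exon regions of TK1 lay between 0.26 and 0.39, with exon region 1a the highest at 393 and 283 read equivalents. TK1 (ENSG00000167900) is on the minus strand of chromosome 17, from 73681755 to 73694909.

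TK2 was the weakest member and the only one with a log2 ratio below 0. It had 2933 and 1513 reads (14.7 and 13.8 RPM) and a log2 ratio of -0.09 (-0.18 to 0.00), an interval that just takes in 0. The interval was -0.21 to -0.03 with median-ratio scaling, -0.23 to -0.05 with TMM scaling and -0.20 to -0.02 with the authors' coverage, and so left out 0. Relative to TK1 its log2 ratio was -0.37 (-0.47 to -0.28). The level of TK1 per base was thus 26.7 times that of TK2 in MIP101 and 34.6 times in MIP/5FU. TK2 (ENSG00000166548) spans 65100853 to 65141816 on the minus strand of chromosome 16. The longest run of bases shared exactly by a TK1 and a TK2 transcript was 11, well under the 36 or 42 bases of the reads.

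Along TK2 the exon regions scattered from -0.46 (exon region 6a, 116 and 46 read equivalents) to 0.29 (exon region 1a, 45 and 30). Its join of exon 6 to exon 7 had 51 and 12 reads. The index of -1.09 had an interval of -2.94 to 0.32, so it was not called. The joins on either side, exon 5 to exon 6 (45 and 29 reads) and exon 7 to exon 8 (44 and 28 reads), had log2 ratios of 0.24 and 0.22.

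Of the ribonucleotide reductase genes, both small subunits had a higher share of reads in MIP/5FU, while the large subunit was nearly level. RRM1 had 65292 and 36798 reads, or 326 and 335 RPM. Its log2 ratio was 0.04 (0.02 to 0.06), which is 1.03-fold and close to the median of 0.03 over all tested genes. RRM1 (ENSG00000167325) lies on the plus strand of chromosome 11 from 4072500 to 4116681, and its 19 exon regions had log2 ratios between -0.06 and 0.15.

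RRM2, the S phase small subunit, had the most reads of the 7 genes. The counts were 104949 in MIP101 and 71163 in MIP/5FU (524 and 649 RPM), with a log2 ratio of 0.31 (0.29 to 0.32), or 1.24-fold. Relative to RRM1 its log2 ratio was 0.27 (0.24 to 0.29). The level of RRM2 per base was 1.39 times that of RRM1 in MIP101 and 1.68 times in MIP/5FU. RRM2 (ENSG00000171848) lies on the plus strand of chromosome 2 from 10179906 to 10188996.

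RRM2B, the p53-inducible small subunit, had 11593 and 8371 reads (57.9 and 76.3 RPM). Its log2 ratio was 0.40 (0.36 to 0.44), or 1.32-fold, the highest after TYMS. The log2 ratio of RRM2B exceeded that of RRM2 by 0.09 (0.05 to 0.13) and that of RRM1 by 0.36 (0.31 to 0.40). RRM2 nevertheless remained the more abundant small subunit, its level per base being 12.1 times that of RRM2B in MIP101 and 11.4 times in MIP/5FU. RRM2B (ENSG00000048392) spans 103285908 to 103320522 on the minus strand of chromosome 8. The longest exact run shared by an RRM2 and an RRM2B transcript was 18 bases, shorter than a read.

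**Figure D2:**
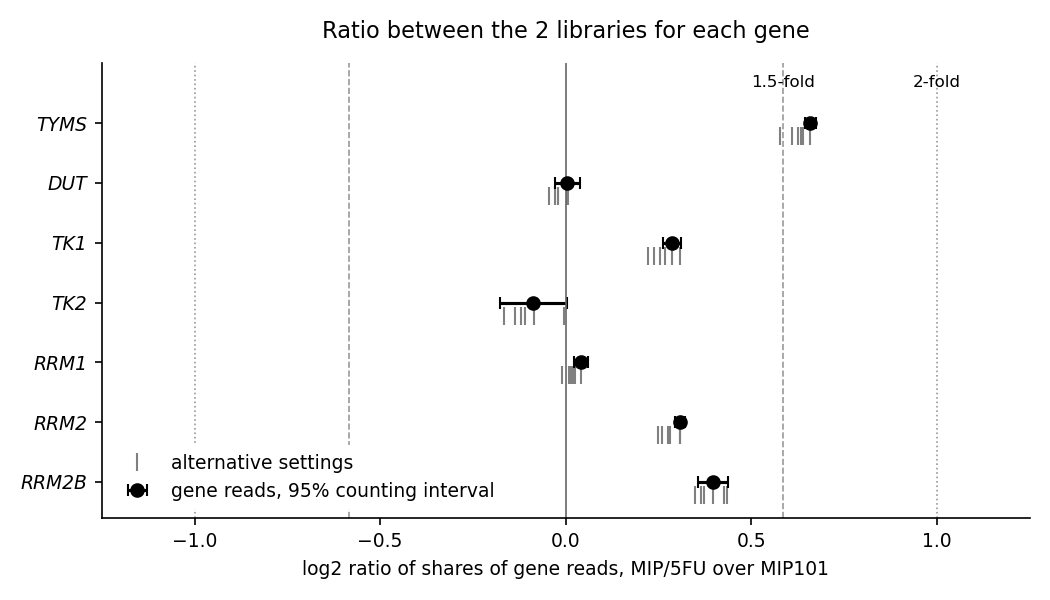
Log2 ratio of shares of gene reads, MIP/5FU over MIP101, for each gene (black points, 95% counting intervals), with grey ticks for the alternative settings and vertical lines at 0, 1.5-fold and 2-fold. TYMS lies past 1.5-fold at 0.66, RRM2B, RRM2 and TK1 lie between 0.29 and 0.40, and RRM1, DUT and TK2 lie within 0.09 of 0.

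None of the 7 enzymes reached a 2-fold difference with an interval excluding 0, a call that 2.53% of tested genes met as higher and 3.09% as lower in MIP/5FU. At 1.5-fold only TYMS was called, as higher; 8.67% of tested genes were called higher and 8.14% lower. The members' median log2 ratio was 0.29, beside 0.03 for all tested genes, and 6 of the 7 were above 0, as were 53.7% of tested genes. That count includes DUT and RRM1, which lay close to 0: it was 5 with median-ratio scaling, with the authors' coverage and from the median of exon regions, and 4 with TMM scaling.

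No feature of these genes was called at a splicing index of 1 or more with its interval excluding 0. That held for the 80 exon regions tested (0.164% of all tested exon regions were called relatively higher in MIP/5FU and 0.112% relatively lower), and for the 7 transcripts tested (0.505% and 0.203%). It also held for the 61 junctions tested (0.0559% and 0.0997%) and the 32 boundaries tested (0.741% and 0.122%). For each gene 1 transcript had enough reads over the features it shares with no other, with indices between -0.15 (TYMS) and 0.06 (RRM2B), and it need not be the most abundant form. TK2 and RRM1 have 1 annotated transcript each, so their indices (-0.0017 and -0.0044) set the gene against itself and say nothing on isoforms. The plot of exon regions shows the ratios along each gene.

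**Figure D3:**
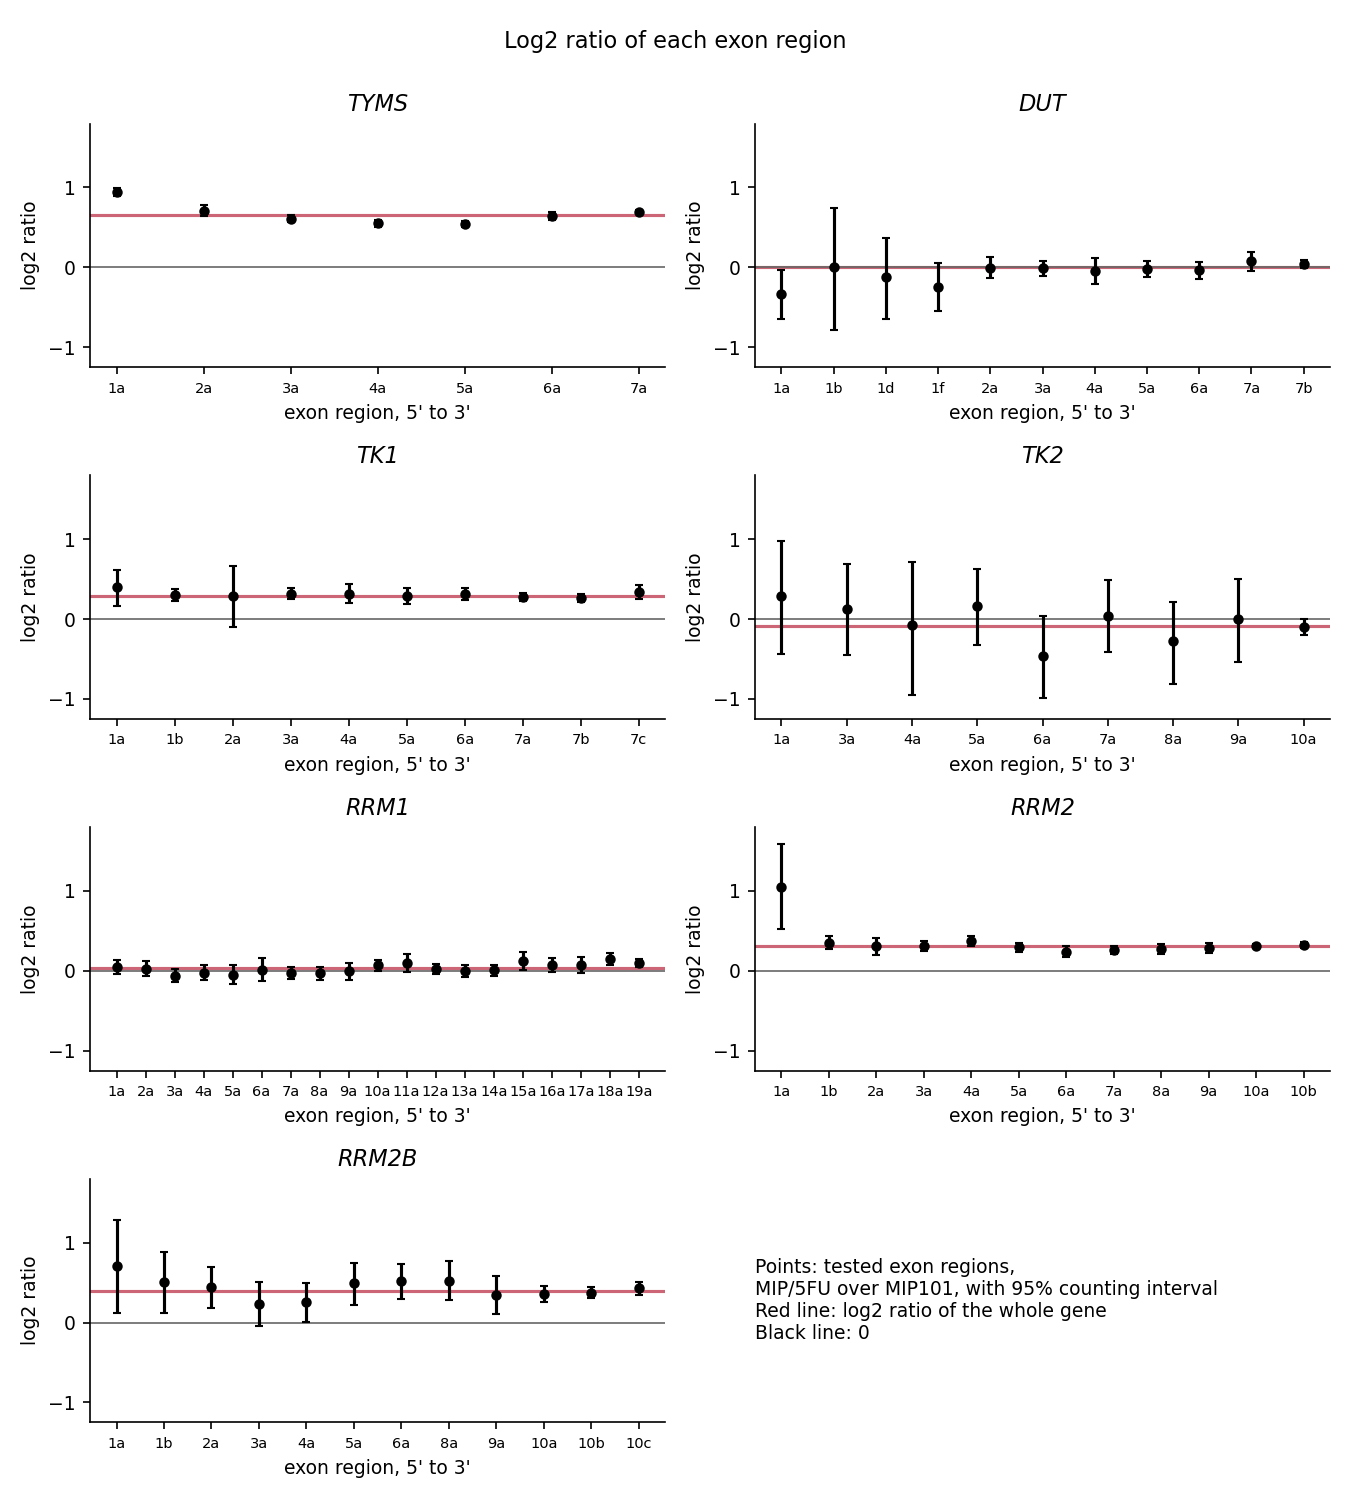
Log2 ratio of each tested exon region, MIP/5FU over MIP101, in order from the 5′ end, 1 panel per gene, with 95% counting intervals; the red line is the ratio of the whole gene and the black line is 0. Exon region 1a of TYMS (0.94) and of RRM2 (1.05) lie above the other regions of their genes.

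The highest index of any member exon region was at the start of RRM2. Region 1a of RRM2 is an upstream stretch of 279 noncoding bases used by 1 of its Ensembl transcripts. It had 58 and 66 read equivalents, a log2 ratio of 1.05 and an index of 0.75 (-0.13 to 1.64). Of all tested first exon regions, 2.07% had an index this high or higher. The next stretch, region 1b, which holds the start codon, had 3250 and 2273 and an index of 0.04, so region 1a was covered at 8.98 and 18.5 per base against 484 and 607 for region 1b. The join of exon 1 to exon 2 of RRM2 had 204 and 177 reads and an index of 0.36 (-0.14 to 0.85), the highest of its junctions.

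No first exon region or first join of the other genes with more than 1 annotated start was called. In RRM2B, region 1a had 56 and 50 read equivalents and an index of 0.31 (-0.66 to 1.26), region 1b had 135 and 105 and an index of 0.11, and the join of exon 1 to exon 2 had 30 and 28 reads and an index of 0.37 (-0.95 to 1.68). In TK1, regions 1a and 1b had indices of 0.11 and 0.02, and the join of exon 1 to exon 2 had 73 and 43 reads and an index of -0.18 (-1.15 to 0.74). None of these intervals excluded 0. The TK1 boundary between regions 1a and 1b (E1_Ab) had 1369 and 1069 reads. Its index of 0.22 (0.03 to 0.42) had an interval that excluded 0 but was too small for a call. The same boundary of RRM2B had 66 and 45 reads and an index of -0.08 (-1.05 to 0.85).

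Exon skipping was rare in all 7 genes. Of 304 skipping junctions in the files for these genes, 48 had any read, 116 and 80 reads in all. Outside TYMS, 3 had at least 5 reads in a library: exon 1 to exon 7 of TK1 (8 and 6 reads), exon 6 to exon 12 of RRM1 (6 and 4) and exon 5 to exon 10 of RRM2 (6 and 2), none with transcript support. The share of junction reads that skipped exons was 0.387% (0.289% to 0.508%) and 0.411% (0.300% to 0.550%) in TYMS, and 0.207% and 0.243% in RRM1. It was higher than in TYMS for TK1, at 0.462% (0.253% to 0.774%) and 0.438% (0.200% to 0.829%), with overlapping intervals. On very few reads it was 0.356% and 0.719% in TK2, 0.364% and 0% in RRM2B, and 0.0267% and 0.0952% in DUT. In RRM2 it was 0.155% (0.0945% to 0.239%) and 0.0697% (0.0256% to 0.152%), and the intervals overlapped. Over all genes the share was 4.25% and 4.31%.

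Reads running from exons into introns without transcript support differed for RRM2. They made up 0.790% (0.645% to 0.957%) of these plus junction reads in MIP101 and 1.23% (1.01% to 1.48%) in MIP/5FU, from 103 and 107 reads, and the intervals did not overlap. In TYMS the shares were 2.61% (2.35% to 2.89%) and 2.58% (2.30% to 2.89%), and in RRM1 1.94% (1.70% to 2.19%) and 1.78% (1.49% to 2.12%). They were higher in MIP/5FU in DUT (0.925% and 1.36%) and TK1 (1.69% and 1.86%), and lower in TK2 (2.77% and 2.11%) and RRM2B (1.26% and 0.491%). The intervals overlapped in each of these genes. Over all genes the shares were 4.13% and 4.66%, so a higher share in MIP/5FU was also seen in the libraries as a whole. Of the RRM2 boundaries, the exon 9 donor (25 and 27 reads, index 0.67, -0.71 to 2.07) and the exon 10 acceptor (30 and 30 reads, index 0.56, -0.73 to 1.85) had the highest indices.

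Some boundaries carried many more reads than others of the same gene, alike in both lines. In RRM1 the exon 17 acceptor (E17_Aa) had 212 and 101 reads, with an index of -0.24 (-0.84 to 0.33), and was the only RRM1 boundary with enough reads to be tested. In DUT the exon 6 acceptor (E6_Aa) had 388 and 193 reads, with an index of -0.14 (-0.57 to 0.27), and is supported by 2 mRNAs. The highest boundary index of any member was that of the DUT exon 5 acceptor (E5_Aa), with 13 and 17 reads and an index of 1.24 (-0.59 to 3.20), not called. The lowest was that of the TYMS exon 5 donor (E5_Da), with 35 and 17 reads and an index of -0.81 (-2.41 to 0.58).

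Genes that act with these enzymes were described from a list of 34 deoxynucleotide pathway partners, of which 32 were matched and 31 tested. At 2-fold none was called higher and 1 was called lower, beside 2.53% and 3.09% of all tested genes. At 1.5-fold 4 were called higher (3 with TMM scaling) and 1 lower, beside 8.67% and 8.14%. The median log2 ratio was 0.12, beside 0.03 for all tested genes and 0.29 for the 7 enzymes. ADA, adenosine deaminase, was the gene called lower: it had 222 and 58 reads, a log2 ratio of -1.06 (-1.51 to -0.65). DTYMK, the kinase that phosphorylates dTMP, is listed at 0 in both libraries, and NME1 and NME2 were not matched. Whether the 0 of DTYMK reflects its expression or how its reads were assigned was not tested.

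The 4 partners called higher at 1.5-fold act at different steps. SLC25A33, a mitochondrial pyrimidine nucleotide carrier, had 2064 and 1882 reads and a log2 ratio of 0.73 (0.64 to 0.83). TXNRD1, thioredoxin reductase, which supplies reducing power to ribonucleotide reductase, had 73299 and 65859 reads and 0.71 (0.70 to 0.73). SAMHD1, which hydrolyses dNTPs, had 9933 and 8917 reads and 0.71 (0.67 to 0.75). CMPK1, the cytosolic UMP and CMP kinase, had 18051 and 15196 reads and 0.62 (0.59 to 0.65).

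The other partners with the largest ratios were not called at either fold. TYMP, thymidine phosphorylase, had a log2 ratio of 0.58 on 374 and 306 reads. Those of CMPK2 (a mitochondrial kinase), TXN (thioredoxin) and SHMT2 (mitochondrial serine hydroxymethyltransferase) were 0.57, 0.46 and 0.43. On the other side were SLC25A36 (-0.55), a further mitochondrial pyrimidine carrier, SLC29A1 (-0.51), the equilibrative nucleoside transporter, and NME7 (-0.38).

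Because TK1, RRM2 and TYMS are made around S phase, lists of cell cycle genes were set beside them. Of 38 S phase genes, all tested, none was called at 2-fold, and the median log2 ratio was -0.02. At 1.5-fold 3 were called higher and none lower, beside 8.67% and 8.14% of all tested genes. The 3 were RFC4, a clamp loader subunit (0.92), and E2F1 and CCNE2 (0.60 and 0.59), a transcription factor and a cyclin of the G1 to S transition, and the largest value below 0 was that of CCNA2 (-0.58). Of 22 genes of G2 and mitosis none was called at either fold. Their median was 0.02, with CENPF (-0.41), CDC20 (0.29), PLK1 (-0.29) and CCNF (0.26) farthest from 0. The ratios of TYMS, RRM2 and TK1, at 0.66, 0.31 and 0.29, lay above the medians of both cell cycle lists and within the range of the S phase list. The part of the cell cycle in these ratios was not tested.

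RRM2B is a p53 target, and 21 of 23 p53 target genes were tested. At 2-fold 3 were called higher (2 with TMM scaling) and none lower, beside 2.53% and 3.09% of all tested genes. At 1.5-fold 5 were called higher and none lower, beside 8.67% and 8.14%. Of the 21 genes, 16 had log2 ratios above 0 and 5 below. CDKN1A, the p21 cell cycle inhibitor, had a log2 ratio of 1.14 (1.05 to 1.24), GDF15 had 1.10 (1.07 to 1.13), BTG2 had 1.04 (0.90 to 1.18) and FDXR had 0.69 (0.63 to 0.75). The median of the list was 0.29, below the 0.40 of RRM2B. The part of p53 in the ratio of RRM2B was not tested.

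**Figure D4:**
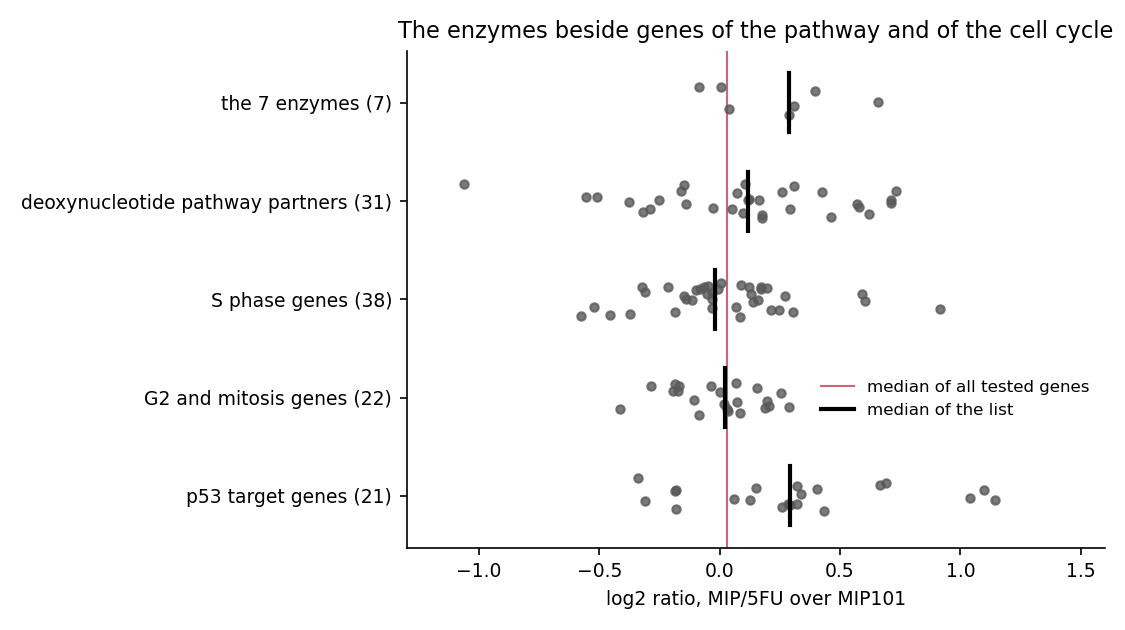
Log2 ratios, MIP/5FU over MIP101, of the 7 enzymes and of the tested genes of each list (grey points, number in brackets), with the median of each list (black bar) and of all tested genes (red line, 0.03). The median was 0.29 for the enzymes, 0.12 for their pathway partners, -0.02 for S phase genes, 0.02 for G2 and mitosis genes and 0.29 for p53 targets.

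Each enzyme gene was also set beside the 10 nearest tested protein-coding genes on each side. TYMS lies near the end of chromosome 18 and has 15 such neighbours, 5 of them towards the end. All 15 had log2 ratios above 0, from 0.11 to 0.91, with a median of 0.48 and an SD of 0.23. Of them 2 were above TYMS: C18orf56 (0.91) and CLUL1 (0.82). C18orf56 shares 106 exonic bases with TYMS and no strand is marked, so its ratio may hold reads of TYMS. The nearest gene on the other side of TYMS, ENOSF1, had 10015 and 6337 reads and a log2 ratio of 0.21. The ratio of TYMS lay within the range of these neighbours, and their part in it was not tested.

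The genes around RRM2B had a median of 0.20 (SD 0.55), with 17 of 20 above 0 and 4 above RRM2B. With 20 genes on each side the median was 0.09, and 26 of 40 were above 0. Its neighbour GRHL2 had a log2 ratio of 0.10. Medians around the other members lay between -0.04 (RRM2) and 0.09 (DUT). RRM2 and TK1 stood above most of their neighbours, with 3 and 2 of 20 above them, and next to RRM2 lay KLF11 (3434 and 932 reads, -1.01) and C2orf48 (0.50). The nearest genes of TK1 were SYNGR2 (0.02) and AFMID (0.18). For DUT, TK2 and RRM1, 13, 13 and 10 of 20 neighbours were higher; the nearest were MYEF2 (0.59) and FBN1 (-0.53), GOT2 (0.26) and CKLF (0.25), and STIM1 (-0.14) and TRIM21 (0.01).

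**Figure D5:**
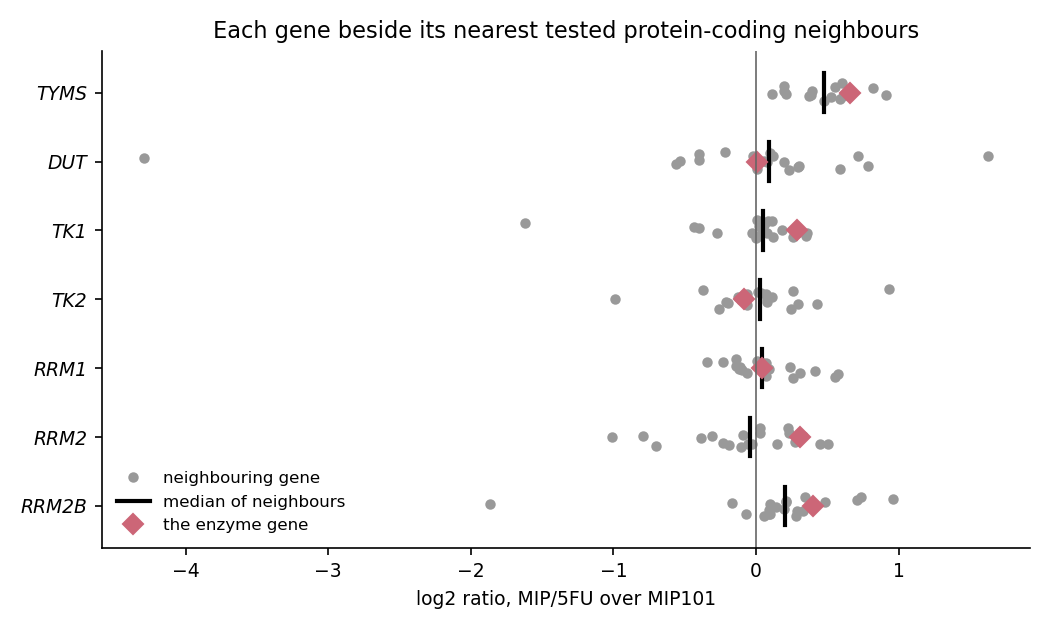
Log2 ratio, MIP/5FU over MIP101, of each enzyme gene (red diamonds), of its nearest tested protein-coding genes, up to 10 on each side (grey points, spread vertically only for display), and their median (black bars). All 15 neighbours of TYMS lie above 0, whereas neighbours of the other genes lie on both sides.

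The promoters of these genes were looked at for letters of known cell cycle motifs, in RefSeq promoters on GRCh38 that run from 250 bases before to 50 bases after each start. The E2F-like words TTTCCCGC, TTTCGCGC, TTTGCCGC and TTTGGCGC were searched on both strands and were found in 3.31% of 35116 promoters. They were found in the promoter of TYMS and in 1 of 4 promoters of DUT, and in none of those listed for TK1, TK2, RRM1 and RRM2; RRM2B has no entry in the promoter table. The word CCAAT, found in 34.6% of all promoters, was found for RRM2, RRM1 and TK1. RRM2 has 3 copies within the same promoter. A match here is of letters only, and its part in any ratio was not tested. The windows printed are those of the E2F-like words of TYMS and DUT and of the 3 CCAAT copies in the same RRM2 promoter. The motif is in capitals, as it reads on the gene's strand (all 6 windows lie on the plus strand), and in the TYMS window and the upstream DUT window it is the reverse complement of TTTCCCGC. The windows are chr18:657603-657632, chr15:48332144-48332173, chr15:48332159-48332188, chr2:10122604-10122633, chr2:10122634-10122663 and chr2:10122661-10122690.
TYMS, 39 bases before the start: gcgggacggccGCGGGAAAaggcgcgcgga
DUT, 42 bases before the start: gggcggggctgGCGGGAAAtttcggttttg
DUT, 27 bases before the start: gaaatttcggtTTTGGCGCgctccctgcgg
RRM2, 123 bases before the start: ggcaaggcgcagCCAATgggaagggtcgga
RRM2, 93 bases before the start: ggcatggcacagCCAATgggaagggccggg
RRM2, 66 bases before the start: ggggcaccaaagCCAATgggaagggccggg

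Other genes with a similar level and ratio were found for each enzyme, taken from protein-coding genes whose reads summed to 1000 or more and whose level per base in MIP101 was within 1.5-fold of the enzyme's. Likeness rests on 2 libraries only. Of the 145 genes compared with TYMS, the nearest in log2 ratio were SLC3A2 (0.66), PRDX2 (0.65) and AP005329.1 (0.60). AP005329.1 is also one of the neighbours of TYMS on chromosome 18 described above. Near RRM2 were SLC25A6, RAC1 and CSDA (all 0.31), and near RRM2B were FOXN2, ZBTB5 and COBL (all 0.40). Near TK1 were NDUFS8 and H2AFX (both 0.29), and RRM1 lay closest to SFRS2, HSD17B10 and DDX17 (all 0.04). DUT lay closest to PSMD13, SUZ12 and PRPF6 (all 0.00) and TK2 to TCP11L1, ZNF485 and NRGN (all -0.09). For TK1, RRM1, RRM2, RRM2B, DUT and TK2 between 425 and 2851 genes were compared.

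Pseudogenes with near-identical sequence could share reads with these genes. Of the pseudogenes of DUT, RRM2 and TYMS that could be matched by identifier, DUTP8 had 2 reads in each library, RRM2P3 had 17 and 7, and DUTP5 and TYMSP1 were listed at 0. The sources used here do not give how the authors divided reads among such copies, so the counts of DUT, RRM2 and TYMS carry that uncertainty.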

How the data were processed

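Polyadenylated RNA of MIP101 and MIP/5FU was sequenced, 1 library each, after 10 PCR cycles per the labels' protocols, as paired reads of 42 or 36 bases per the series' design text. The features are those of Ensembl release 53, according to the names of the files, and the build is hg18, per the submitters' processing notes. Which aligner was used was not given in the sources used here. The gene, junction and boundary counts are raw reads as deposited by the authors. Coverage per base is the authors' signal, summed over bases of reads and scaled by the authors by a factor per library, per the file headers. The exon region and transcript files hold coverage only, although the design had assumed counts, so read equivalents were computed as deposited coverage divided by the mean bases per read (40.4 in MIP101, 39.8 in MIP/5FU).

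Gene ratios are log2 ratios of shares of gene reads after adding 0.5 reads, with exact conditional binomial 95% intervals, for genes whose 2 libraries summed to 100 reads or more. Calls needed 2-fold or 1.5-fold and an interval excluding 0. Splicing indices had exact intervals leaving out 0.1% and needed at least 50 (exon regions, transcripts) or 20 (junctions, boundaries) reads over both libraries in genes with at least 200 over both and 10 in each. Pairs of enzymes were compared by conditional odds ratios. The scripts were tested on simulated data.

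The members, gene lists and rules were chosen with earlier results of these data known. Named were the 7 enzymes, up to 12 partners and up to 4 genes of each other list with the largest absolute ratio, genes overlapping or next to a member, the 3 most alike genes, the highest and lowest features, the regions and joins of alternative starts, and skipping junctions with at least 5 reads in a library. The DUT E2_Da and E6_Aa, RRM2 E10_Aa and TK1 and RRM2B E1_Ab boundaries were picked after their values were seen. So were TYMS exon regions 4a and 5a, the TK2 joins beside exon 6 to exon 7 and RRM2 as the gene put first for boundary shares. A few genes that the rule would name are not reported here. List genes were matched by the name in the files, otherwise by identifier. Alternatives were median-ratio and TMM scaling, the authors' normalized coverage, a pseudocount of 5, other filters, index and interval rules, and 20 neighbours each side. Python 3.11.15 with numpy, pandas, scipy 1.17.1 and matplotlib, and R 4.3.3 with edgeR 4.0.16 (TMM factors), were used.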

Additional observations from a re-analysis of the deposited data

How the results depend on the processing

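Each result has 1 library per line behind it, so no replicate could be left out. No paired analysis was possible because each line has 1 library and the labels give no replicate numbers. Over all alternatives the log2 ratio ranged from 0.58 to 0.66 for TYMS, 0.35 to 0.43 for RRM2B, 0.25 to 0.31 for RRM2, 0.22 to 0.31 for TK1, -0.04 to 0.00 for DUT and -0.17 to -0.01 for TK2. The lowest value for TYMS, from the median of its canonical junctions, is under 1.5-fold. RRM1 changed sign with TMM scaling, to -0.0088, where its interval includes 0; its shift there is that of all genes (0.05, and 0.03 for median-ratio scaling). Median-ratio and TMM scaling shift all genes alike and cancel in the 6 differences between enzymes, so they could not test these. A pseudocount of 5 is small beside the reads of these genes and could hardly move the differences. With the authors' coverage the 6 differences kept their sign. The orders by level were the same from reads per exonic base. That measure divides by the same exonic bases, so it could hardly change the orders and did not test the choice of bases.

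With index intervals of 95%, 1 junction was called relatively lower (TK2 exon 6 to exon 7; 0.798% of all junctions were called lower) and 1 boundary relatively higher (DUT E5_Aa; 4.01%). Of the pathway partners, 2 were 1.5-fold lower with median-ratio scaling and 2 with TMM scaling; 0 were 2-fold lower with a pseudocount of 5, and with at least 1000 reads 0 were 2-fold lower and 0 were 1.5-fold lower, since ADA then fails the filter. Of the S phase genes, 1 was 1.5-fold higher and 1 lower with median-ratio scaling, 1 and 1 with TMM scaling, and 1 and 1 with the authors' coverage. With TMM scaling 3 partners were 1.5-fold higher and 2 p53 targets 2-fold higher. The G2 and mitosis median changed sign, to -0.025 with TMM scaling, -0.0086 with median-ratio scaling and -0.0017 with the authors' coverage. With 20 neighbours on each side the median was 0.39 around TYMS (23 of 25 above 0), 0.09 around RRM2B, 0.12 around TK1, 0.10 around RRM1, 0.09 around DUT, -0.01 around TK2 and -0.02 around RRM2. Depth limits the reading of many single features of TK2 and RRM2B and of all skipping junctions, which had few reads.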
